A study of Homo sapiens with 18 samples.

Results

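The 50 genes described here act in G2 phase and mitosis. They were chosen by gene symbol, with no measured value in the rule, but with earlier results of these data known. They were followed in a single oral squamous carcinoma cell line under 3 glucose conditions with and without the neuropeptide CGRP. CGRP (calcitonin gene-related peptide) is released by sensory nerve endings. All 50 were found among the 60683 genes of the count table, and all 50 were among the 18159 genes with enough counts to be tested. The cells were cal27, an established line from tongue mucosa, kept for 24 hours in high glucose DMEM, in glucose-deprived medium, or in high glucose DMEM with 5 mM 2-DG (2-deoxyglucose, a glucose analog that cells take up and phosphorylate but cannot carry through glycolysis). In each medium, 10 nM rhCGRP (labelled TG) was set against control medium (labelled capTG), which gave 6 groups of 3 libraries. The rhCGRP treatment is taken from the design text. The growth protocol says only "different CM", so the name CGRP used below rests on the design text. The repeats were described as biologically independent. All of them came from 1 established line, and the composition of the control medium and the passage and density of the cells were not given in the sources used here. Of the 8 squamous epithelial markers checked, all 8 were present, with a summed level of 3404 to 4627 CPM (counts per 1000000 counts) over the 18 libraries.

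Entry into mitosis is driven by CDK1 bound to cyclin A or cyclin B, after CDC25 phosphatases remove the inhibitory phosphates from CDK1. Polo and Aurora kinases then build the spindle, the checkpoint proteins hold back CDC20 and the anaphase-promoting complex (APC/C) until every kinetochore is attached, and cyclin B and securin are destroyed so that separase can cut cohesin. Most of these genes are transcribed in a burst late in the cell cycle by B-MYB and FOXM1 on the MuvB complex, and are kept silent in resting cells by the DREAM complex at the same promoters, so their RNA levels are widely read as a record of cycling cells. In a bulk library, fewer cells in G2 and mitosis and less of this RNA per cell cannot be told apart.

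The libraries held 28038260 to 32661768 gene counts. Levels below are CPM with library totals scaled by the trimmed mean of M-values (TMM). Of the 18 libraries, 2 stood apart from their group mates: deprived CGRP replicate 2 and 2-DG control replicate 2 differed from their nearest group mate by a chi-square of 85.6 and 35.5 per gene, against 1.43 to 3.69 for the other 16. Deviations within a group were related to exon length in these 2 libraries and, at smaller size, elsewhere. Over the 48 genes above 1 CPM, the deviation of a gene from its 2 group mates had a Spearman correlation with its total exon length of -0.77 in deprived CGRP replicate 2 and of -0.81 in 2-DG control replicate 2, a description across genes that share a library. The correlation was also -0.70 in high-glucose CGRP replicate 2, 0.63 in high-glucose CGRP replicate 1, -0.64 in 2-DG CGRP replicate 1 and 0.62 in 2-DG CGRP replicate 2, where the mean deviation of the 10 genes with the longest exons lay between -0.12 and 0.12. In deprived CGRP replicate 2 the 10 genes with the longest exons (6032 to 12807 bases) lay on average 0.46 below their mates on the log2 scale (mean deviation -0.46), and the 10 shortest (1286 to 2801 bases) lay 0.39 above. The extremes there were MKI67 at -1.22 and PTTG1 at 0.81. The number of the 50 genes that passed is given below with and without these 2 libraries wherever it moved by over 1.5 times.

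In high-glucose control medium the 50 genes together took 0.831% of all counts (SD 0.0157, n = 3). Per kilobase of exon, the highest levels were those of CDC20, the APC/C activator, at 130 CPM per kb, the decatenating enzyme TOP2A at 123, cyclin B1 (CCNB1) at 119.5, and the APC/C ubiquitin-conjugating enzyme UBE2C at 102. The lowest were NUSAP1 at 0.103 and PRC1 at 0.171 CPM per kb, far under KIF15 at 6.06 and SKA1 at 6.495. For NUSAP1 and PRC1, 62.2% and 57.6% of the exon bases in GENCODE 29 are shared with a second gene model on the same strand, AC087721.2 (0 counts in every library) and AC068831.7 (8.51 CPM in high-glucose control, SD 0.495, n = 3). Reads from such shared exons may not have been assigned to either gene, so the counts of NUSAP1 and PRC1 are uncertain. In all, 17 of the 50 genes share some exon bases with another gene on either strand, and the sources used here do not say whether strand was used in counting.

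Glucose deprivation lowered every one of the 50 genes. In control medium, deprived cells were compared with high-glucose cells by edgeR's quasi-likelihood test with Benjamini-Hochberg adjustment over all genes tested, the test used for every comparison here. All 50 fell at an adjusted p under 0.05 and none rose, where 29.6% of all genes tested fell and 31.0% rose. The median log2 fold change of the 50 was -1.71, against 0.02 for all genes, and single genes ran from -2.74 to -0.43. Their share of all counts went from 0.831% to 0.225% (SD 0.00357, n = 3). The cyclins and CDK1 show the size of the change. CDK1, the kinase that starts mitosis, stood at 268, 279 and 267 CPM in the 3 high-glucose control libraries and at 63.5, 64.4 and 61.1 CPM in the 3 deprived control libraries, a log2 fold change of -2.11 ± 0.07 (SE; adjusted p = 3.2e-13). CCNB1 stood at 301, 309 and 307 CPM against 85.8, 86.9 and 84.7 CPM, and cyclin A2 (CCNA2) at 92.1, 96.4 and 91.6 CPM against 21.5, 20.8 and 21.5 CPM. The groups did not overlap for any of the 3, and the deprived libraries lay close together. Here and below, the share of all genes whose groups did not overlap is not given. For genes named because of a small adjusted p or a large change, a lack of overlap adds no support.

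Among the kinases and regulators, PLK1, the polo kinase of spindle assembly, was at 147, 149 and 146 CPM in high glucose and at 37.0, 37.1 and 34.0 CPM in deprived cells (log2 fold change -2.03 ± 0.05). FOXM1, a transcription factor for this gene set, changed less, from 112, 115 and 109 CPM to 58.9, 57.8 and 56.2 CPM (-0.96 ± 0.05, adjusted p = 4.5e-11). CDC20 went from 259, 274 and 265 CPM to 102, 103 and 100.4 CPM (-1.39 ± 0.08). TOP2A went from 769, 814 and 787 CPM to 198, 195 and 189 CPM (-2.03 ± 0.09), and MKI67, which coats mitotic chromosomes and is the usual marker of proliferation, from 579, 617 and 569 CPM to 116, 122 and 117 CPM (-2.31 ± 0.24, adjusted p = 3.2e-07). None of these groups overlapped. All groups share 1 estimate of the spread for a gene, and the error of MKI67 includes the libraries that stood apart; without them its log2 fold change was -2.34 ± 0.08.

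**Figure D1:**
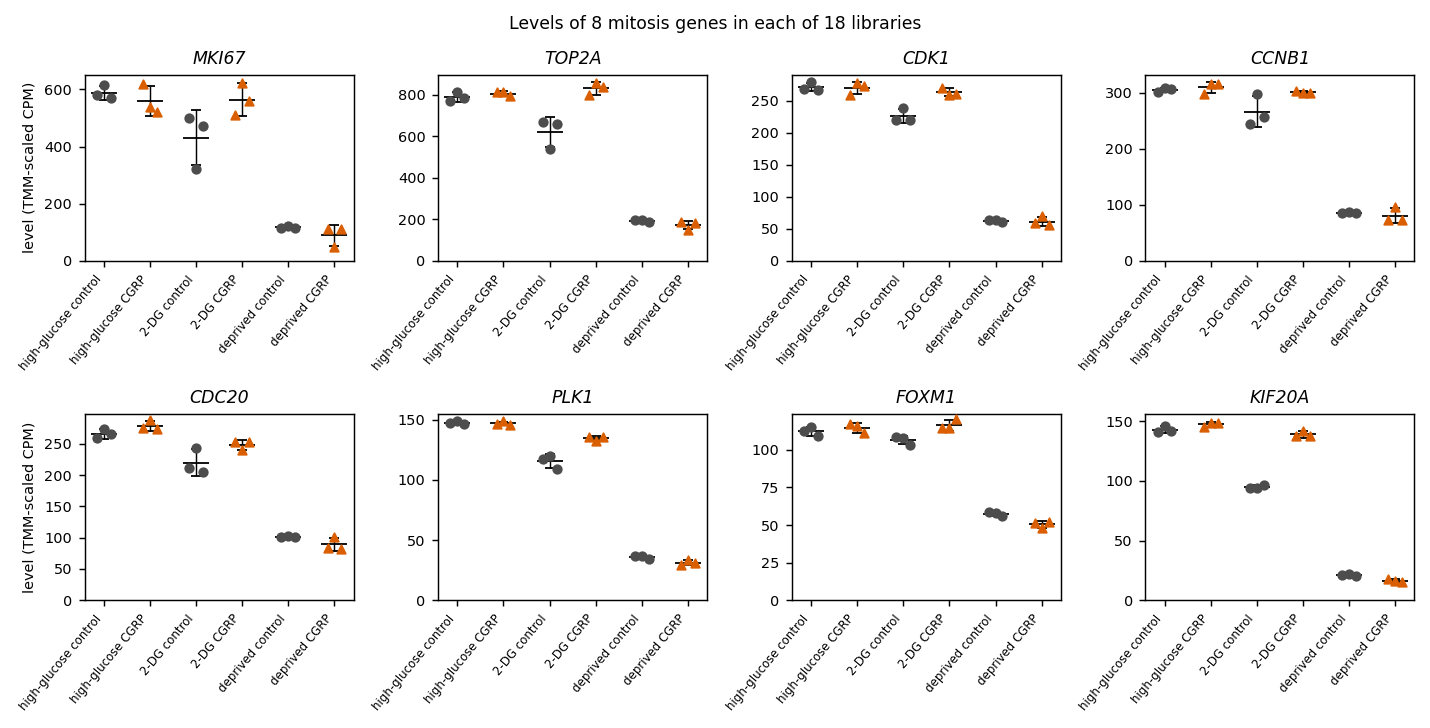
Levels of 8 of the genes in each of the 18 libraries, in TMM-scaled CPM on a linear axis from 0; circles are control medium, triangles CGRP, and the bar and whiskers are the mean and SD of 3 libraries. All deprived libraries sit below all others for each gene (KIF20A, 14.99 to 22.2 CPM against 94.0 to 149 CPM), and in 2-DG the KIF20A control libraries (94.0 to 96.8 CPM) sit below the CGRP libraries (137 to 142 CPM).

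The largest fall was that of KIF20A, a kinesin of the central spindle that is needed for cytokinesis. It stood at 141, 146 and 142 CPM in high-glucose control and at 21.2, 22.2 and 20.6 CPM in deprived control, 0.149 times the level (log2 fold change -2.74 ± 0.06, adjusted p = 1.3e-15). DLGAP5, a spindle-stabilizing protein, followed, from 138, 145 and 139 CPM to 28.1, 26.3 and 27.3 CPM (-2.37 ± 0.06). TPX2, the activator of Aurora A on spindle microtubules, went from 325, 335 and 326 CPM to 97.9, 94.7 and 91.9 CPM (-1.79 ± 0.04), and HMMR, a spindle pole protein, from 147, 158 and 149 CPM to 40.5, 38.7 and 38.0 CPM (-1.96 ± 0.05). The deprived libraries of all 4 genes lay well below every high-glucose library. At the other end stood BUB3, a checkpoint protein that also has work outside mitosis, at 255, 264 and 255 CPM against 196, 190 and 188 CPM (-0.43 ± 0.05, adjusted p = 7.0e-07), then the kinetochore gene SKA1 at -0.81 ± 0.07 and FOXM1.

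By role, the median log2 fold changes lay close together. They were -1.72 for the 6 cyclins, CDK1 and CDC25 genes, -1.94 for the 3 genes PLK1, AURKA and FOXM1, and -1.72 for the 5 checkpoint genes. They were -1.52 for the 4 genes of APC/C activation, securin and separase, and -1.81 for the 4 chromosomal passenger genes. They were -1.68 for the 8 centromere and kinetochore genes, -1.62 for the 10 kinesins, -1.66 for the 6 spindle microtubule proteins, -1.71 for the pair ANLN and ECT2 of cytokinesis, and -2.17 for TOP2A and MKI67. Within the kinesins the range ran from KIF20A to KIF15 (-1.25 ± 0.06) and KIF18A (-1.30 ± 0.06), and within the chromosomal passenger complex from Aurora B (AURKB, -2.08 ± 0.11) to CDCA8 (-1.53 ± 0.04).

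The comparison was repeated in the CGRP libraries, which are separate from the control libraries. With CGRP, deprived cells were again lower than high-glucose cells for all 50 genes, where 28.5% of all genes fell and 31.9% rose, and the median log2 fold change was -1.92 against 0.04 for all genes. KIF20A stood at 145, 149 and 149 CPM in high glucose with CGRP and at 17.6, 16.3 and 14.99 CPM in deprived medium with CGRP (-3.18 ± 0.06, adjusted p = 4.3e-16). CCNA2 (89.2, 90.3 and 86.9 CPM against 19.0, 17.9 and 17.7 CPM, -2.29 ± 0.05), TPX2 (325, 335 and 326 CPM against 82.7, 82.3 and 86.1 CPM, -1.97 ± 0.04) and HMMR (148, 155 and 155 CPM against 35.2, 34.0 and 35.0 CPM, -2.14 ± 0.05) had the next smallest adjusted p-values. MKI67 had the second largest fall, from 620, 538 and 521 CPM to 112, 47.8 and 112 CPM (-2.63 ± 0.24), which was -2.35 without the 2 libraries that stood apart. The deprived libraries were below the high-glucose libraries in each. Across the 50 genes the fold changes with and without CGRP had a Pearson correlation of 0.96, or 0.98 over the 48 genes above 1 CPM, a description over genes measured in 2 sets of 6 libraries that share none. The fall was larger with CGRP for 46 of the 50. Whether it was larger is tested below as the difference in CGRP effect.

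**Figure D2:**
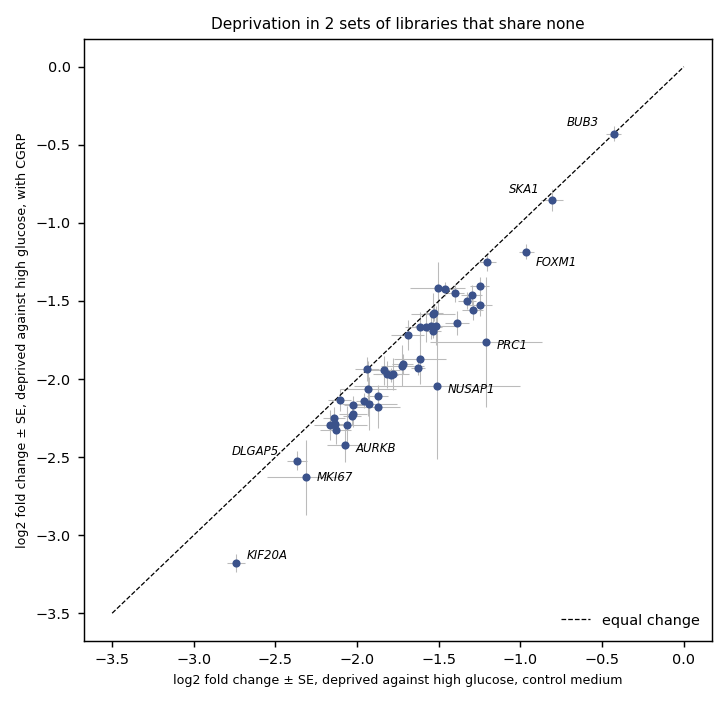
Log2 fold change of each of the 50 genes, deprived against high glucose, in control medium (x axis) and with CGRP (y axis), with standard errors; the dashed line marks equal change. All points lie below 0 on both axes, from BUB3 (-0.43 on both) to KIF20A (-2.74 and -3.18), and 46 of 50 lie below the line.

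Promoter sequences were read for the genes that fell together, because a pair of short elements near the start site are known to recruit the regulators named above: the CHR (cell cycle genes homology region, TTTGAA or TTCGAA), bound by MuvB, and the CCAAT box, bound by NF-Y. RefSeq promoters of GRCh38.p14 were matched by symbol for 43 of the 50 genes, with 53 start sites. Both elements were searched on both strands in the 250 bases before the start. A CHR match stood in 49.1% of the 53 windows against 14.3% of all 35116 promoter windows, and within 100 bases of the start in 37.7% against 4.92%. CCAAT stood in 71.7% against 32.0%, and both elements in 41.5% against 5.05%. TTCGAA reads the same on both strands, and a letter match is not evidence of binding. The promoters below belong to the 4 genes with the smallest adjusted p in deprived against high-glucose control cells among those with a CHR match within 100 bases of the start, and show how the elements are placed. They are given 5′ to 3′ in the direction of transcription, ending at the base before the start site, with matches to either element in capitals (TTCAAA and ATTGG are the same elements on the opposite strand).
HMMR, chr5:163460382-163460631, plus strand: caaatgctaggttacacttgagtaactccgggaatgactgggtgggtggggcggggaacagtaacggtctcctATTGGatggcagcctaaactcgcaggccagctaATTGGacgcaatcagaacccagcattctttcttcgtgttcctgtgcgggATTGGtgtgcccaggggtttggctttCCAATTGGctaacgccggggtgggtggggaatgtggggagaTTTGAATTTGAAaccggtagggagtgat
PLK1, chr16:23678639-23678888, plus strand: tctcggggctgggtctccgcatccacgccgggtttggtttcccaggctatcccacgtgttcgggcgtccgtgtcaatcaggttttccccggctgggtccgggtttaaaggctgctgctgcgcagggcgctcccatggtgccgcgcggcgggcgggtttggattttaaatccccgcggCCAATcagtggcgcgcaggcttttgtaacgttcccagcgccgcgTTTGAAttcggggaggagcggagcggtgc
KIF23, chr15:69414099-69414348, plus strand: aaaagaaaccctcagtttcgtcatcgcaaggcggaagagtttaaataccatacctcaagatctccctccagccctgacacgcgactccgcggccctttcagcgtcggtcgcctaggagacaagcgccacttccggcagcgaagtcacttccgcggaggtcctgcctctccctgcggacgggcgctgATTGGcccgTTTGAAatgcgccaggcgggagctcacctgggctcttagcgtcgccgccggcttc
KIF11, chr10:92592880-92593129, plus strand: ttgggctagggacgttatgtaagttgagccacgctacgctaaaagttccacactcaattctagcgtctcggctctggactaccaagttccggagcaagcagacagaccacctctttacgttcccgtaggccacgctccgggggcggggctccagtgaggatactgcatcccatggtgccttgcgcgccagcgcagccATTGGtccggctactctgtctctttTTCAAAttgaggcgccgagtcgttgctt
In PLK1 and KIF11 there was 1 CCAAT box upstream of 1 CHR, HMMR held 5 CCAAT matches and 2 adjoining CHR matches, and in KIF23 the 2 elements were a few bases apart. The 20 genes with a CHR within 100 bases had a median log2 fold change of -1.62 (range -2.31 to -1.21) and the 23 matched genes without one so near had -1.82 (range -2.74 to -0.81), with KIF20A among the latter. The difference was not tested. A CHR anywhere in the 250 bases was present in 24 of the 43 matched genes.

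Treatment with 2-DG in high glucose gave a much smaller change. In control medium, 26 of the 50 genes fell and 1 rose relative to high glucose, where 5.85% of all genes fell and 7.99% rose. The median log2 fold change was -0.28 against 0.01 for all genes. HMMR showed the largest fall, from 147, 158 and 149 CPM to 100, 99.1 and 101 CPM (-0.60 ± 0.05, adjusted p = 5.0e-07). KIF20A fell from 141, 146 and 142 CPM to 94.2, 94.0 and 96.8 CPM (-0.59 ± 0.05, adjusted p = 1.7e-06), and TPX2 from 325, 335 and 326 CPM to 254, 246 and 255 CPM (-0.38 ± 0.04). BUB1, a checkpoint kinase, stood at 149, 157 and 152 CPM against 114, 102 and 116 CPM (-0.46 ± 0.06). None of these groups overlapped. CDK1 (-0.26 ± 0.07), PLK1 (-0.35 ± 0.05), TOP2A (-0.35 ± 0.08) and CDC20 (-0.27 ± 0.07) fell as well, the last with an adjusted p of 0.0224. The CDC20 call was lost without high-glucose control 2 or 3 or 2-DG control 1 or 3, and the CDK1 call without high-glucose control 2 or 2-DG control 1 or 3.

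Some of the best known members did not pass in 2-DG. FOXM1 was at 109, 108 and 104 CPM against 112, 115 and 109 CPM (-0.08 ± 0.05, adjusted p = 0.332). CCNB1 was at 245, 298 and 257 CPM (-0.20 ± 0.09, adjusted p = 0.168) and MKI67 at 500, 322 and 471 CPM (-0.45 ± 0.23, adjusted p = 0.224). The middle value of both belongs to 2-DG control replicate 2, one of the 2 libraries that stood apart, which was the highest of its group for CCNB1 (exons of 2558 bases) and the lowest for MKI67 (12807 bases). Without both of those libraries 43 of the 50 passed, 42 lower and 1 higher, including all 27 that passed with them, where 14.6% of all genes were then lower and 18.4% higher, and CCNB1 was at -0.29 (adjusted p = 6.3e-10) and MKI67 at -0.28 (adjusted p = 0.0287). FOXM1 then stood at -0.09 with an adjusted p of 0.0532. The gene that rose was SKA3, from 30.9, 33.2 and 32.0 CPM to 36.2, 37.6 and 34.1 CPM (0.17 ± 0.05, adjusted p = 0.0421). It missed the threshold in 18 of the 26 alternative analyses, among them total-count scaling.

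With CGRP present in both media, 1 of the 50 genes was lower in 2-DG than in high glucose and none was higher, where 0.870% of all genes were lower and 1.52% higher. The gene was HMMR, at 124, 128 and 134 CPM in 2-DG against 148, 155 and 155 CPM (-0.25 ± 0.05, adjusted p = 0.00935), and its call was lost without high-glucose CGRP replicate 2 or 3 or 2-DG CGRP replicate 1. The median of the 50 was -0.04. The next smallest adjusted p-values did not pass. BUB1 stood at 127, 139 and 132 CPM in 2-DG against 146, 149 and 148 CPM (-0.15 ± 0.06, adjusted p = 0.232). PLK1 stood at 136, 133 and 135 CPM against 146, 149 and 145 CPM (-0.13 ± 0.05, adjusted p = 0.261), and CDC20 at 253, 240 and 253 CPM against 275, 288 and 273 CPM (-0.17 ± 0.07, adjusted p = 0.316). The groups did not overlap in any of the 3, which were also picked by adjusted p, so this adds no support. Without the 2 libraries that stood apart, neither of which belongs to these 2 groups, 18 genes passed, all lower, where 9.15% of all genes were then lower. Without deprived CGRP replicate 2 alone 5 passed.

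Cells in 2-DG medium kept far higher levels of these genes than deprived cells. Without CGRP, 49 of the 50 were higher in 2-DG than in deprived medium and none was lower, where 28.9% of all genes were higher and 28.6% lower, with a median log2 difference of 1.43. The largest differences were those of KIF20A (2.15 ± 0.05) and of SPC25, a subunit of the NDC80 kinetochore complex, which stood at 23.2, 29.3 and 25.6 CPM against 6.13, 6.76 and 6.36 CPM (2.02 ± 0.10). The smallest adjusted p was that of CCNA2, at 74.5, 76.5 and 73.5 CPM against 21.5, 20.8 and 21.5 CPM (1.82 ± 0.05, adjusted p = 2.1e-14). TPX2 (254, 246 and 255 CPM against 97.9, 94.7 and 91.9 CPM, 1.41 ± 0.04) and DLGAP5 (103, 106 and 104 CPM against 28.1, 26.3 and 27.3 CPM, 1.94 ± 0.06) were among the 4 with the smallest adjusted p, and no groups overlapped. Only PRC1, the gene with the uncertain counts, did not pass (0.75 ± 0.36, adjusted p = 0.0851). These comparisons share control libraries, so the values are set side by side and no relation between them is tested.

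**Figure D3:**
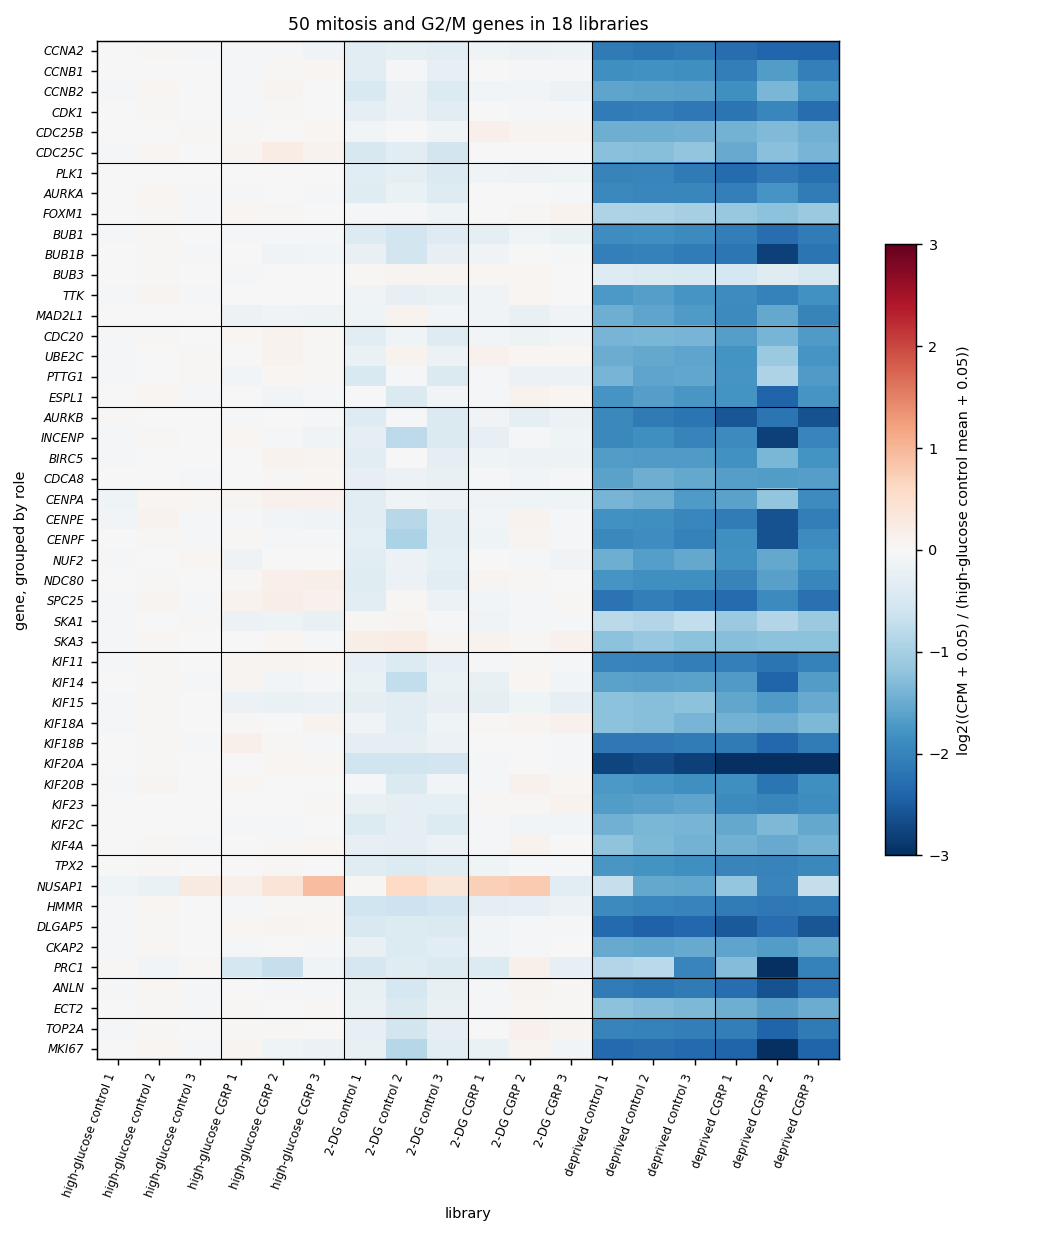
Level of each of the 50 genes (rows, grouped by role) in each of the 18 libraries (columns), as log2 of CPM plus 0.05 over the high-glucose control mean plus 0.05; blue is lower and red higher, cut at -3 and 3. The 6 deprived libraries are blue throughout, and deprived CGRP 2 and 2-DG control 2 show a pattern of their own, with MKI67, CENPF and INCENP lower and PTTG1 and UBE2C higher than in their group mates.

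CGRP in high glucose changed none of the 50 genes at an adjusted p under 0.05 by edgeR, where 2.04% of all genes rose and 2.29% fell. The median log2 fold change was 0.00, with 25 genes above 0 and 25 below. At an unadjusted p under 0.05 there were 2, and DESeq2 also called 0. The smallest adjusted p-values were 0.0882 for KIF15, a spindle kinesin, at 28.5, 28.1 and 28.3 CPM with CGRP against 31.4, 32.96 and 31.8 CPM without (-0.18 ± 0.06). The next were 0.153 for SKA1, at 17.0, 17.3 and 16.3 CPM against 18.8, 18.9 and 19.8 CPM (-0.18 ± 0.07), 0.356 for CDC25C, at 30.6, 33.5 and 30.8 CPM against 28.04, 29.6 and 28.3 CPM (0.14 ± 0.07), and 0.495 for CCNA2, at 89.2, 90.3 and 86.9 CPM against 92.1, 96.4 and 91.6 CPM (-0.07 ± 0.04). The groups did not overlap in these 4 genes, but they were picked for the smallest adjusted p and did not pass. How many of all genes were apart in this way is not given here. KIF20A stood at 145, 149 and 149 CPM with CGRP and at 141, 146 and 142 CPM without (0.05 ± 0.05, adjusted p = 0.811), and CDK1 at 259, 278 and 273 CPM against 268, 279 and 267 CPM. When only the 6 high-glucose libraries were fitted, 8 genes passed, 5 higher and 3 lower. The share of all genes called in that fit is not given here. When the 2 libraries that stood apart were left out 7 passed, 4 higher and 3 lower, where 9.33% of all genes were then higher and 10.04% lower, and without deprived CGRP replicate 2 alone 2 passed.

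In glucose-deprived medium CGRP lowered 12 of the 50 genes and raised none, where 6.58% of all genes fell and 6.38% rose. The median log2 fold change was -0.17 against 0.01 for all genes, and 44 of 50 were below 0. KIF20A fell from 21.2, 22.2 and 20.6 CPM to 17.6, 16.3 and 14.99 CPM (-0.39 ± 0.06, adjusted p = 2.6e-04). KIF23, another kinesin of the central spindle, fell from 40.4, 41.8 and 43.1 CPM to 34.3, 33.2 and 35.3 CPM (-0.28 ± 0.04, adjusted p = 5.5e-04). KIF15 fell from 13.6, 13.2 and 13.6 CPM to 10.9, 9.90 and 11.2 CPM (-0.33 ± 0.06). In all 3 kinesins every CGRP library was below every control library, but they were picked by adjusted p, so this adds no support. CCNA2 fell from 21.5, 20.8 and 21.5 CPM to 19.0, 17.9 and 17.7 CPM (-0.22 ± 0.05, adjusted p = 0.00454). The others that fell were BUB1 (-0.28 ± 0.06), TPX2 (-0.18 ± 0.04), FOXM1 (-0.19 ± 0.05), PLK1 (-0.21 ± 0.05), ECT2, the exchange factor that sets the cleavage plane (-0.23 ± 0.06), HMMR (-0.17 ± 0.05), SKA1 (-0.23 ± 0.07) and AURKB.

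AURKB showed the second largest of these falls, from 11.1, 9.65 and 9.25 CPM to 7.07, 9.21 and 6.83 CPM (-0.38 ± 0.12, adjusted p = 0.0464). Its middle CGRP value, from the library that stood apart, came close to the controls. The cyclin-dependent core was mixed: CDK1 stood at 59.3, 69.4 and 55.7 CPM with CGRP against 63.5, 64.4 and 61.1 CPM (-0.04 ± 0.07, adjusted p = 0.769), and CCNB1 at 72.3, 96.1 and 73.1 CPM against 85.8, 86.9 and 84.7 CPM (-0.09 ± 0.09, adjusted p = 0.541). MKI67 was at 112, 47.8 and 112 CPM against 116, 122 and 117 CPM (-0.39 ± 0.23, adjusted p = 0.29). In each of these 3 genes deprived CGRP replicate 2 lay outside the range of the other 5 libraries, above them for CDK1 and CCNB1 and below them for MKI67.

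Without both libraries that stood apart, 28 genes fell and none rose, among them all 12 that passed with them, where 16.7% of all genes then fell. CCNB1 was then at -0.23 (adjusted p = 4.0e-06), CDK1 at -0.12 (adjusted p = 0.0185), CDC20 at -0.28 (adjusted p = 1.7e-07) and AURKB at -0.52 (adjusted p = 1.7e-05), while MKI67 was at -0.07 (adjusted p = 0.628) and TOP2A at -0.06 (adjusted p = 0.175). The count was 5 without deprived control replicate 1 and 5 without deprived control replicate 2, and it was 0 when only the 6 deprived libraries were fitted, where the adjusted p of KIF20A was 0.111. The calls of KIF20A, KIF23, KIF15, BUB1 and CCNA2 were kept whichever library was left out. Those of PLK1, FOXM1, TPX2, HMMR and ECT2 were lost without deprived control 1 or 2, that of PLK1 also without deprived CGRP 1, those of HMMR and ECT2 also without deprived CGRP 2, and that of HMMR without deprived control 3. The calls of AURKB and SKA1 were lost in 17 and 20 of the 26 alternatives.

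In 2-DG medium the direction was the opposite. CGRP raised 24 of the 50 genes and lowered none, where 5.31% of all genes rose and 6.89% fell, and the median log2 fold change was 0.24 against -0.01 for all genes, with 46 of 50 above 0. KIF20A rose from 94.2, 94.0 and 96.8 CPM to 138, 142 and 137 CPM (0.55 ± 0.05, adjusted p = 3.9e-06). HMMR rose from 100, 99.1 and 101 CPM to 124, 128 and 134 CPM (0.36 ± 0.05, adjusted p = 8.2e-05), and KIF23 from 110, 105 and 106 CPM to 133, 133 and 138 CPM (0.33 ± 0.04, adjusted p = 8.4e-05). The groups did not overlap in any of these. TPX2 rose from 254, 246 and 255 CPM to 303, 314 and 314 CPM (0.30 ± 0.04). The second largest rise was that of CENPE, a kinetochore kinesin with long exons (9444 bases), from 58.8, 41.2 and 58.5 CPM to 69.4, 79.4 and 71.3 CPM (0.47 ± 0.13, adjusted p = 0.0242), and was 0.33 (adjusted p = 3.9e-06) without the 2 libraries that stood apart. Its call was lost without 2-DG control 2, 2-DG CGRP 2 or 2-DG CGRP 3.

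By role, the genes that rose in 2-DG with CGRP were 7 of 10 kinesins, 4 of 6 spindle microtubule proteins and 4 of 6 of the cyclin and CDC25 group. With them rose 2 of the 3 genes PLK1, AURKA and FOXM1, both cytokinesis genes and 2 of 8 kinetochore genes. The rest were 1 each of the checkpoint genes, the passenger complex and the pair TOP2A and MKI67. None of the 4 genes of APC/C activation, securin and separase passed. Leaving out the 2 libraries that stood apart gave 8 of 10 kinesins, 4 of 6 spindle microtubule proteins and 6 of 6 of the cyclin and CDC25 group. It also gave all 3 of PLK1, AURKA and FOXM1, both cytokinesis genes, 5 of 8 kinetochore genes and 3 of 5 checkpoint genes. The rest were 4 of 4 passenger genes, 3 of 4 of the APC/C activation group and 1 of TOP2A and MKI67. CDK1 rose from 220, 239 and 219 CPM to 270, 259 and 260 CPM (0.22 ± 0.07, adjusted p = 0.0409), PLK1 from 117, 120 and 109 CPM to 136, 133 and 135 CPM (0.22 ± 0.05), and TOP2A from 667, 539 and 658 CPM to 797, 859 and 837 CPM (0.42 ± 0.08). CCNB1 (0.18 ± 0.09, adjusted p = 0.241), FOXM1 (0.13 ± 0.05, adjusted p = 0.102), CDC20 (0.17 ± 0.07, adjusted p = 0.154) and MKI67 (0.39 ± 0.23, adjusted p = 0.318) did not pass. Without the 2 libraries that stood apart 39 genes rose, among them all 24, where 12.5% of all genes then rose. With only the 6 2-DG libraries fitted 14 rose, and the share of all genes in that fit is not given here. The CDK1 call was lost in 15 of the 26 alternatives and that of PLK1 without 2-DG control 3.

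The members' mean log2 CPM puts the 6 groups side by side. It was 6.62 ± 0.03 in high-glucose control (SD, n = 3 in each group) and 6.62 ± 0.01 with CGRP, 6.35 ± 0.01 in 2-DG control and 6.59 ± 0.03 in 2-DG with CGRP, 4.94 ± 0.05 in deprived control and 4.76 ± 0.04 in deprived medium with CGRP. On this scale the 2-DG control libraries (6.34 to 6.36) lay below the high-glucose libraries (6.59 to 6.65) and the 2-DG CGRP libraries (6.57 to 6.62), and the latter overlapped the high-glucose range.

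**Figure D4:**
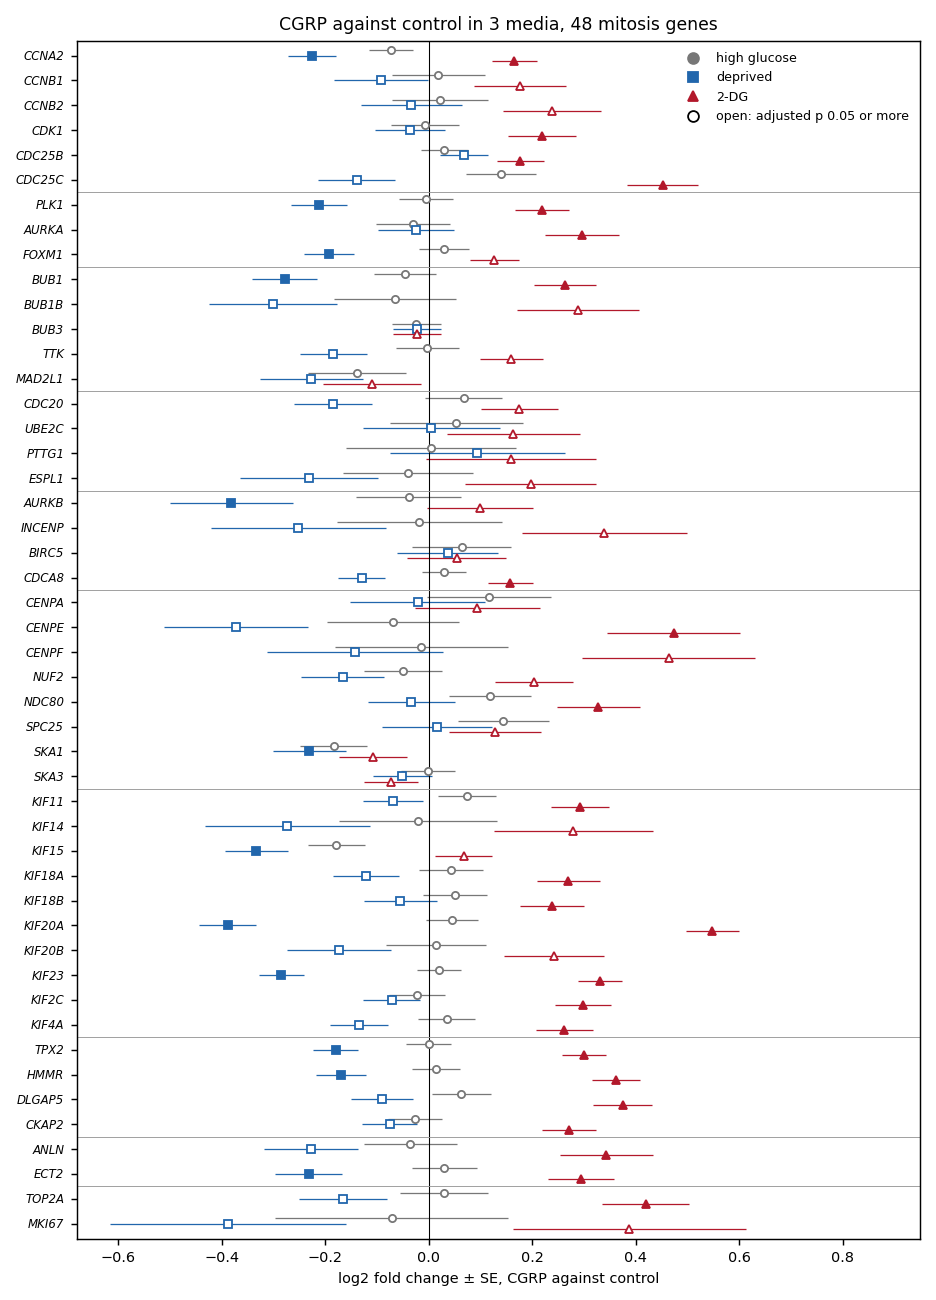
Log2 fold change of CGRP against control medium, with standard error, for 48 genes in high glucose (circles), deprived medium (squares) and 2-DG medium (triangles); filled symbols passed at an adjusted p under 0.05, grey lines divide the roles, and NUSAP1 and PRC1, under 1 CPM, are not drawn. Filled squares all lie below 0 (12 genes) and filled triangles all lie above 0 (24 genes); no circle is filled.

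The difference between CGRP effects was tested directly. Deprived minus high glucose, the CGRP effect was lower for 2 of the 50 genes and higher for none, where 0.650% of all genes were lower and 0.903% higher. These were KIF20A (-0.43 ± 0.08, adjusted p = 0.00616) and KIF23 (-0.30 ± 0.06, adjusted p = 0.0181), then FOXM1 at an adjusted p of 0.138 and TPX2 at 0.189. KIF20A passed in all 26 alternatives. KIF23 was lost in 9 of them, 6 of which left out 1 library (high-glucose control 1 or 3, high-glucose CGRP 2 or 3, deprived control 2 or 3), so that 1 gene was left. The median over the 50 was -0.16, and 46 were below 0. With those 2 libraries left out 19 genes passed, all lower, where 7.63% of all genes were then lower, and without deprived CGRP replicate 2 alone 5.

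For 2-DG minus high glucose, 4 genes were higher and none lower, where 0.121% of all genes were higher and 0.270% lower. They were KIF20A (0.50 ± 0.07, adjusted p = 0.00611), HMMR (0.35 ± 0.07, adjusted p = 0.0316), KIF23 (0.31 ± 0.06, adjusted p = 0.0365) and TPX2 (0.30 ± 0.06, adjusted p = 0.0416). The median was 0.23, with 45 of 50 above 0. KIF20A passed in all 26 alternatives. The count was 1 when any library except deprived CGRP 1, 2 or 3 was left out, 12 without deprived CGRP replicate 2, and 30 without both libraries that stood apart, where 2.38% of all genes were then higher.

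The difference between 2-DG and deprived medium was added after the values above were seen, because the signs were opposite. Here 22 of 50 genes had a higher CGRP effect in 2-DG and none a lower one, where 1.69% of all genes were higher and 2.18% lower, and 49 of 50 were above 0 (median 0.38). The count was 39 without the 2 libraries that stood apart, where 8.75% of all genes were then higher. KIF20A again led at 0.94 ± 0.08 (adjusted p = 4.9e-06), followed by KIF23 at 0.62 ± 0.06, HMMR at 0.53 ± 0.07 and TPX2 at 0.48 ± 0.06. CENPE had the second largest value among those that passed, 0.85 ± 0.19 (adjusted p = 0.0181), and 0.54 without the 2 libraries that stood apart; its call was lost without deprived control 1 or 2-DG CGRP 2. These differences reuse the CGRP and control libraries of the comparisons above.

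**Figure D5:**
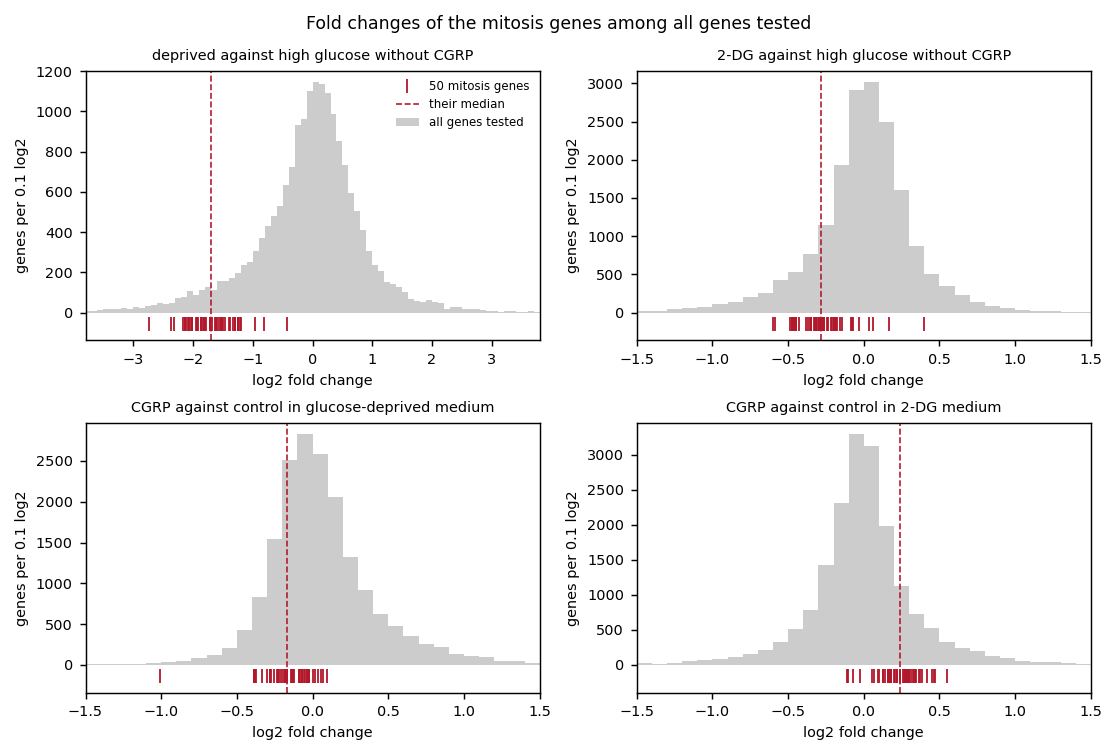
Histograms of the log2 fold changes of all genes tested (grey bars, bins of 0.1) with each of the 50 genes as a red tick and their median as a dashed line, in 4 comparisons; the x axes are cut and genes beyond them are not drawn. The median lies at -1.71 in deprivation, -0.28 in 2-DG, -0.17 for CGRP in deprived medium and 0.24 for CGRP in 2-DG medium, with all-gene medians between -0.01 and 0.02.

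Other genes of the same machinery were read from fixed lists in control medium. In deprived cells all 8 condensin genes, which compact chromosomes, fell (median -1.32), with NCAPG at -1.88 ± 0.05 and NCAPH at -1.76 ± 0.06. Of 24 further centromere and kinetochore genes 20 fell and 1 rose (median -0.71), with CENPK at -1.07 ± 0.05 and ZWINT at -1.32 ± 0.07. Of 29 DNA replication genes 28 fell and 1 rose (median -1.06), led by the helicase subunit MCM6 (-1.94 ± 0.05) and the ribonucleotide reductase subunit RRM2 (-2.18 ± 0.06). These counts stand beside 29.6% of all genes that fell and 31.0% that rose. In the other lists the shares were nearer to those of all genes. Of 15 APC/C core genes 5 rose and 4 fell (median 0.04), with CDC16 at 0.84 ± 0.06 and the late APC/C activator FZR1 at -0.31 ± 0.05, and of 15 cohesin genes 4 rose and 8 fell (median -0.13), with RAD21, the subunit that separase cuts, at -0.74 ± 0.04. Among 14 MuvB, B-MYB and pocket protein genes 4 rose and 6 fell (median -0.25), with B-MYB (MYBL2) at -2.02 ± 0.06 and the repressor E2F8 at -2.62 ± 0.13. Of 12 genes that brake CDK1 or act in the G2 checkpoint 5 rose and 6 fell (median -0.23), with cyclin F (CCNF) at -1.92 ± 0.07 and the inhibitory CDK1 kinase PKMYT1 at -1.30 ± 0.07. Without the 2 libraries that stood apart the counts of rises and falls were 6 and 6 for the APC/C core, 7 and 8 for cohesin, 2 and 20 for the other kinetochore genes and 4 and 9 for MuvB and pocket proteins, where 36.5% of all genes rose and 36.6% fell, and the other lists kept the same numbers.

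In 2-DG fewer genes of these lists passed, and the counts stand beside 7.99% of all genes that rose and 5.85% that fell. Of the 29 DNA replication genes 7 rose and 1 fell relative to high glucose in control medium (median 0.10), with the origin licensing factor CDC6 at 0.41 ± 0.05, GINS3 at 0.31 ± 0.05 and MCM3 at 0.27 ± 0.05, beside 26 of 50 mitosis genes that fell. With CGRP in 2-DG none of the 29 rose and 2 fell (median -0.10), beside 24 of 50 that rose and 6.89% of all genes that fell, so that 2 of 29 is near the share over all genes. Without the 2 libraries that stood apart 11 of the 29 rose and 1 fell in 2-DG, where 18.4% of all genes rose, and 3 rose and 7 fell with CGRP in 2-DG, where 16.3% of all genes fell. Of the 8 condensin genes 3 fell in 2-DG, among them NCAPD2 (-0.55 ± 0.10), and 2 rose with CGRP in 2-DG, where 5.31% of all genes rose. Without those libraries 5 fell and 1 rose in 2-DG, and 6 rose with CGRP in 2-DG. The shares of all genes in that fit are given above with the 50 genes. RAD21 (-0.32 ± 0.04) and SGO2, the protector of centromeric cohesin (-0.23 ± 0.06), fell among the 15 cohesin genes with none rising. The APC/C core had 2 rises, ANAPC7 (0.31 ± 0.08) and CDC16 (0.22 ± 0.06). The other kinetochore genes had 1 rise, MIS12 (0.29 ± 0.05), and 1 fall, CENPC (-0.28 ± 0.08). Among the MuvB and pocket protein genes E2F4 (0.31 ± 0.06) and E2F5 (0.41 ± 0.12) rose and MYBL2 (-0.24 ± 0.06) fell, and of the 12 G2 checkpoint genes 3 rose and 2 fell, with CDKN1A, the inhibitor p21, at -0.35 ± 0.04, the G1/S phosphatase CDC25A at 0.61 ± 0.08 and CCNF at -0.41 ± 0.06. Without the same libraries the rises and falls in 2-DG were 3 and 3 for cohesin, 6 and 1 for the APC/C core, 3 and 8 for the other kinetochore genes, 4 and 2 for MuvB and pocket proteins, and 5 and 5 for the G2 checkpoint genes. In that fit 18.4% of all genes rose in 2-DG, and the share that fell is given above with the 50 genes. No test compares a list with the 50 genes.

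Summed over each list, markers of other cell types lay far below the squamous epithelial markers in all groups, but some were clearly expressed. Of the 8 fibroblast markers 4 had a mean under 0.1 CPM, and the sum ranged from 10.6 to 28.8 CPM over all libraries; 4 of 7 leukocyte markers, 3 of 5 endothelial markers and 5 of 10 neuron and Schwann cell markers were under 0.1 CPM. The markers KDR (endothelium), PDGFRA (fibroblasts) and SOX10 (Schwann cells) had 3, 2 and 4 counts in all 18 libraries together. Most of the endothelial sum was CDH5 (22.8 CPM in high-glucose control). Those 3 low markers are examples picked from their lists, and the sums rest on other markers, which apart from CDH5 are not named here. The fibroblast sum was lower in deprived control (10.6 to 11.6 CPM) than in high-glucose control (25.4 to 27.1 CPM), as was the leukocyte sum (0.850 to 1.02 against 6.11 to 7.13 CPM). The endothelial sum was 1.86 to 2.64 CPM in deprived control and 24.4 to 25.2 CPM in high-glucose control. With CGRP the endothelial sum was higher in every medium. It was 42.5 to 44 CPM in high glucose and 3.12 to 3.87 CPM in deprived medium. In 2-DG it was 39.8 to 43.8 CPM against 21.4 to 25.2 CPM in 2-DG control. The neuron and Schwann cell sum was 26.5 to 29.8 CPM with CGRP against 19.0 to 19.9 CPM in high glucose, 20.6 to 24.5 against 22.3 to 23.7 CPM in deprived medium, and 27.8 to 32.0 against 19.1 to 20.8 CPM in 2-DG. These sums moved with the medium and with CGRP, and their part in the results was not tested.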

How the data were processed

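Total RNA of cal27 cells was extracted with Trizol and sequenced on standard Illumina libraries, per the labels' protocols. The deposited table holds raw read counts per Ensembl gene, whole numbers that the authors did not normalize. HISAT2 2.0.4 is named in the submitters' processing notes, which list both hg19 and GRCh38. Which tool and annotation produced the counts, and whether strand was used, is not given in the sources used here.

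Symbols were matched for 60370 of 60683 genes. Genes were kept by filterByExpr (minimum count 10, minimum total 15), scaled by TMM and fitted in edgeR 4.0.16 (R 4.3.3, limma 3.58.1) with robust quasi-likelihood dispersions over all 18 libraries, 6 group coefficients and 12 residual degrees of freedom. Benjamini-Hochberg adjustment ran over 18159 genes, and the threshold was 0.05. Log2 CPM used a prior count of 2. The precision is set by 3 libraries per group (common biological coefficient of variation 9.44%) and, for low genes, by depth. Exon lengths and overlaps came from GENCODE 29, and promoter sequences from RefSeq, GRCh38.p14. The procedure was tested on simulated data.

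The 50 genes, the lists and the comparisons were chosen with earlier results of these data known. All 50 could be named by role. Values in every library were given for MKI67, CCNB1, CDK1, PLK1, FOXM1, TOP2A and CDC20, and for the 4 genes with the smallest adjusted p and the 2 largest rises and falls among those that passed in a comparison, unless shown before. From each list up to 3 genes with the smallest adjusted p were named. Alternatives were other scaling factors, DESeq2 1.42.0, other filters, only the groups compared, the replicate number as a block, and leaving out libraries.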

Additional observations from a re-analysis of the deposited data

Results flagged for a closer look

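The results below have a CGRP effect that differed between 2 media by the test of the difference itself (edgeR's quasi-likelihood test, adjusted p under 0.05). Each value is a difference of 2 log2 fold changes. Deprived minus high glucose, the values were -0.43 for KIF20A and -0.30 for KIF23. For 2-DG minus high glucose they were 0.50 for KIF20A, 0.31 for KIF23, 0.30 for TPX2 and 0.35 for HMMR.

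For 2-DG minus deprived, a difference added after the values were seen, 22 genes passed. Among the kinesins these were KIF20A (0.94), KIF23 (0.62), KIF15 (0.40), KIF4A (0.40), KIF18A (0.39), KIF2C (0.37) and KIF11 (0.36). Among spindle and cytokinesis proteins they were ANLN (0.57), HMMR (0.53), ECT2 (0.53), TPX2 (0.48), DLGAP5 (0.465) and CKAP2 (0.35). The kinetochore, checkpoint and passenger genes were CENPE (0.85), BUB1 (0.54), TTK (0.34) and CDCA8 (0.29). CDC25C (0.59), TOP2A (0.59), PLK1 (0.43), CCNA2 (0.39) and FOXM1 (0.32) complete the set. In this difference KIF20A, KIF23, TPX2, HMMR, CCNA2, CDC25C, BUB1 and ECT2 passed in all 26 alternatives, and TTK missed the threshold in 17 of them.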

How the results depend on the processing

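The fall of the 50 genes in deprivation held in all 26 alternatives for the genes tested, except that NUSAP1 was lost without high-glucose control 3 or deprived control 2 or 3 (49 to 50 genes called when 1 library was left out in control medium, and 50 with CGRP). The higher level in 2-DG than in deprived medium held likewise (49 to 50). Total counts in place of TMM moved the median of all genes in deprivation from 0.02 to -0.13 (0.04 to -0.09 with CGRP) and that of the 50 genes from -1.71 to -1.86. It moved the share of all calls that were higher from 51.2% to 38.0% (52.8% to 41.5% with CGRP), from 57.7% to 38.1% in 2-DG (63.6% to 51.1% with CGRP), from 49.2% to 66.2% for CGRP in deprived medium, from 43.5% to 57.0% in 2-DG, and for the differences in CGRP effect from 58.2% to 70.6% (deprived) and 31.0% to 44.4% (2-DG).

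Calls among the 50 changed as follows, and the cause was not tested, except that fits to fewer libraries have fewer residual degrees of freedom. The share of all genes called is given above only for the main fit and the fit without both libraries that stood apart. Counts from the other fits have no such share beside them. For CGRP in high glucose the count of 0 became 8 with only the groups compared and 7 without both libraries that stood apart (range 0 to 2 leaving out 1 library). For CGRP in deprived medium 12 became 5 with no low-count filter, 0 with only the groups compared and 28 without both libraries (range 5 to 16). For CGRP in 2-DG 24 became 14 with only the groups compared and 39 without both (range 17 to 35). For 2-DG against high glucose 27 became 43 without both (range 18 to 39), and with CGRP 1 became 0 with no filter, 11 with only the groups compared and 18 without both (range 0 to 5). The difference in CGRP effect, deprived minus high glucose, went from 2 to 1 with total counts, no filter or only the groups compared, to 4 with DESeq2 and 19 without both (range 1 to 5). For 2-DG minus high glucose 4 became 11 with DESeq2, 1 with no filter and 30 without both (range 1 to 12), and for 2-DG minus deprived 22 became 14 with no filter, 8 with only the groups compared and 39 without both (range 16 to 32).

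Signs reversed in 3 genes. For CGRP in deprived medium UBE2C went from 0.01 to -0.24 without both libraries (-0.24 to 0.12 leaving out 1 library, lowest without deprived CGRP 2), PTTG1 from 0.09 to -0.22 (-0.22 to 0.24) and BIRC5 from 0.04 to -0.11 (-0.11 to 0.11). The difference in CGRP effect for PTTG1, deprived minus high glucose, went from 0.09 to -0.23 (-0.23 to 0.24). The stricter filter left 48 genes, without NUSAP1 and PRC1.

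Replicates with the same number did not pair in general: of 15 pairs of libraries per number, 3, 2 and 1 correlated above 0.1. Of 18 libraries, 8 correlated best with their own number. The highest correlation was 0.64, in a pair of libraries with replicate number 2, the number of both libraries that stood apart. Which pair it was is not given here. With the replicate number as a block the counts, in the order of the comparisons above, were 50, 50 and 49 for deprivation, deprivation with CGRP and 2-DG against deprived, 0, 12 and 25 for CGRP in the 3 media, 27 and 1 for 2-DG, and 2, 3 and 23 for the differences. NUSAP1 and PRC1 were under 1 CPM, and how far depth limited the other genes was not tested.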
